A study of Mus musculus with 8 samples.

Results

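The interleukin-17 (IL-17) receptor and signalling genes described here are 6 of the 46078 genes in the deposited count table: the receptor chains Il17ra, Il17rc and Il17re, the adaptor Traf3ip2, and the regulators Nfkbiz and Zc3h12a. They were chosen by name, as the receptor chains, adaptor and immediate regulators of the pathway, with earlier results of these data known. Values of the set given beside those of all genes are therefore a description only. All 6 passed the filter on low counts. RNA was sequenced from Lgr5-traced hair follicle cells sorted from mouse epidermis after injury to the skin. Every animal carried the alleles Lg5-egfp-ires-creert2/R26-tdTomato, in which the promoter of Lgr5, a gene of hair follicle stem cells, drives EGFP and an inducible Cre, and Cre switches on the red reporter tdTomato for good. The cells were labelled Treg-depleted (without regulatory T cells, n = 4) or Treg-sufficient (n = 4), both with skin injury, and no uninjured group was analysed here. Experiment 2 supplied replicates 3 and 4 of each condition and experiment 1 replicates 1 and 2. The sources used here do not give how the regulatory T cells were removed, the kind of injury, the time after it or the age of the animals. The labels do not tie replicates to separate animals, so p-values reflect only the spread between these libraries, some of it perhaps technical.

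IL-17A and IL-17F, made mainly by T cells and innate lymphoid cells, bind a receptor of the chains IL-17RA and IL-17RC, and the epithelial cytokine IL-17C binds IL-17RA with IL-17RE. The adaptor Act1, encoded by Traf3ip2, joins these receptors to NF-κB and MAP kinase signalling and to the control of mRNA stability. Among the products in keratinocytes are IκBζ, encoded by Nfkbiz, a nuclear cofactor that drives many IL-17 target genes, and Regnase-1, encoded by Zc3h12a, an RNase that degrades inflammatory transcripts and restrains the response.

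The libraries held 22330729 to 29975347 counts over genes. The Lgr5 transcript itself was present in each (308 to 518 CPM, counts scaled to library size), and all 10 markers of follicle stem cells and basal keratinocytes had counts. Several libraries stood apart. Treg-depleted replicate 2 (18605) and Treg-sufficient replicate 3 (19593) had counts in fewer genes than the other 6 libraries (21720 to 23062). The female-specific transcript Xist reached 76.8 CPM in replicate 2 of the Treg-depleted and 2674 CPM in replicate 2 of the Treg-sufficient cells, against 0.960 to 2.17 CPM elsewhere. Both are named below as the libraries with Xist reads, although the other 6 held Xist reads at that low level.

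All 6 genes were expressed in every library. On the RPKM scale (CPM per kilobase of merged exons), which compares levels between genes, Il17rc averaged 17.2 ± 8.40 in Treg-depleted libraries, against 14.9 ± 4.28 in Treg-sufficient ones (SD, n = 4 each). Nfkbiz averaged 20.5 ± 7.34 RPKM in Treg-depleted libraries, against 10.1 ± 2.56 RPKM in Treg-sufficient ones. Over all 8 libraries the order of mean RPKM levels was Il17rc (16.0), Nfkbiz (15.3), Traf3ip2 (9.03), Il17re (8.40), Zc3h12a (5.93) and Il17ra (3.28). The common chain Il17ra thus had the lowest level per length of the set, and its partners Il17rc and Il17re both lay above it. The ranges of every pair of neighbours in this order overlapped. Library by library, Il17rc lay above Nfkbiz in 3 of 8, Nfkbiz above Traf3ip2 in 7 of 8, Traf3ip2 above Il17re in 6 of 8, Il17re above Zc3h12a in 6 of 8 and Zc3h12a above Il17ra in 8 of 8.

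**Figure D1:**
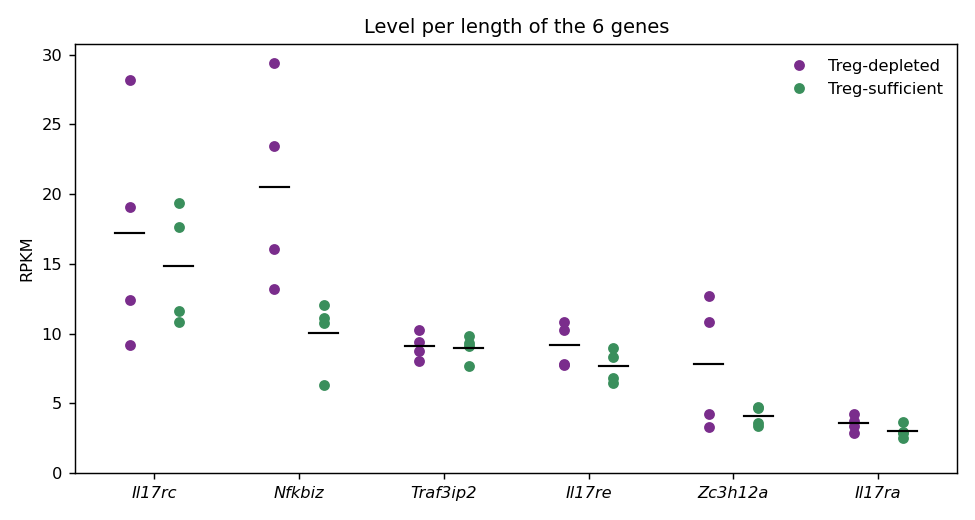
Level per transcript length (RPKM, vertical axis) of each gene in each library, with Treg-depleted libraries in purple to the left of Treg-sufficient libraries in green and a bar at each group's mean. The mean RPKM over the 8 libraries is 16.0 for Il17rc and 3.28 for Il17ra, and Nfkbiz shows the gap between the groups, 20.5 against 10.1 RPKM.

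On the GRCm38 assembly, Il17re (ENSMUSG00000043088, chr6:113458484-113470758) and Il17rc (ENSMUSG00000030281, chr6:113471427-113483140) lie in tandem on the plus strand with 668 bp between them, and Il17ra (ENSMUSG00000002897, chr6:120463247-120487559, plus strand) lies farther along the same chromosome. Traf3ip2 (ENSMUSG00000019842) spans chr10:39612934-39655307 on the plus strand. Nfkbiz (ENSMUSG00000035356) spans chr16:55811375-55838899 and Zc3h12a (ENSMUSG00000042677) chr4:125118423-125127840, both on the minus strand. Exons of Traf3ip2 overlap the antisense gene E130307A14Rik, which had 190 to 397 counts per library. The sources used here do not give the strand setting of the counting, so reads of Traf3ip2 and of its antisense partner cannot be told apart.

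Promoter windows from RefSeq (GRCm38.p6, 250 bases before to 50 after the start) were matched for 3 of the 6 genes, Zc3h12a (chr4:125127832-125128131, minus strand), Il17re (chr6:113458521-113458820, plus strand) and Il17rc (chr6:113471205-113471504, plus strand). No window was available for Il17ra, Traf3ip2 and Nfkbiz in the source used. Capitals mark matches, on either strand, to the letters GGGANNNNCC (NF-κB), TGANTCA (AP-1), TTGCNNAA (C/EBP), TGACG (a half-site of the cyclic AMP response element) or GGGCGG (GC box).
Zc3h12a: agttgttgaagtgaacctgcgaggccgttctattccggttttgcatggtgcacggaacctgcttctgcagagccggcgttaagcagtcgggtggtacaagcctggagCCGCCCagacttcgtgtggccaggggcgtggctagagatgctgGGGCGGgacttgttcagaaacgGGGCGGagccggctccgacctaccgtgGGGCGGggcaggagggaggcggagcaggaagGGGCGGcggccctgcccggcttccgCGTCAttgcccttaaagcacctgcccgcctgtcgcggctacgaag
Il17re: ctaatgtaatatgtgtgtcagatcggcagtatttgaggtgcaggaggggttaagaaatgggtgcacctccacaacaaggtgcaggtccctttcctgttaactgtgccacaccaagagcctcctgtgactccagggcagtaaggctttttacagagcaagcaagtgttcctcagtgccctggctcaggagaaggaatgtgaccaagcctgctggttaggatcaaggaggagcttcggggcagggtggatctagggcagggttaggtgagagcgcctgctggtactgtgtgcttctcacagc
Il17rc: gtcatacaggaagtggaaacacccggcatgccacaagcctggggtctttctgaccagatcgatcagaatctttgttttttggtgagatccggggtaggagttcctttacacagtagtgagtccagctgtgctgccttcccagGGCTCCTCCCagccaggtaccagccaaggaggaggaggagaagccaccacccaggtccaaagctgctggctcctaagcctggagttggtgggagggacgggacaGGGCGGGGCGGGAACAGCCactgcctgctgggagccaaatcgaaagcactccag
The Zc3h12a window held 5 GC boxes and 1 TGACG match and none of the NF-κB, AP-1 or C/EBP letters. The Il17rc window held 2 NF-κB matches and 2 GC boxes, of which 1 pair of different motifs overlapped, and the Il17re window held none of the 5 motifs. The RefSeq start of Il17re lies downstream of the GENCODE start given above, so that its window falls inside the gene as GENCODE places it. Of all 32851 windows of this length, 20.7% held the NF-κB letters, 7.81% AP-1, 10.8% C/EBP, 20.8% TGACG and 35.7% a GC box. A match describes the letters only, and no motif was found in all 3 windows.

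The first question was whether these genes differed between Treg-depleted and Treg-sufficient cells in a model that also allowed for the experiment. All 6 log2 fold changes were above 0, but none passed an adjusted p of 0.05. Nfkbiz and Zc3h12a had the largest differences of the set, 0.98 and 0.74 on the log2 scale, and the receptor chains and adaptor lay between 0.01 and 0.26. Over all 16495 genes tested, 0 (0%) passed in this comparison and 50.3% had a log2 fold change above 0, with a median of 0.002 beside 0.243 for the 6 genes. At an unadjusted p under 0.05, 3 of the 6 genes were higher (Il17re, Nfkbiz and Zc3h12a), beside 3.50% of all genes. In either direction 1175 genes, 7.12%, reached that unadjusted level by edgeR. At an adjusted p under 0.05 other tools called 84 genes (DESeq2) and 0 genes (limma-voom). In bulk samples such as these, fewer cells of a type and less RNA per cell cannot be told apart.

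**Figure D2:**
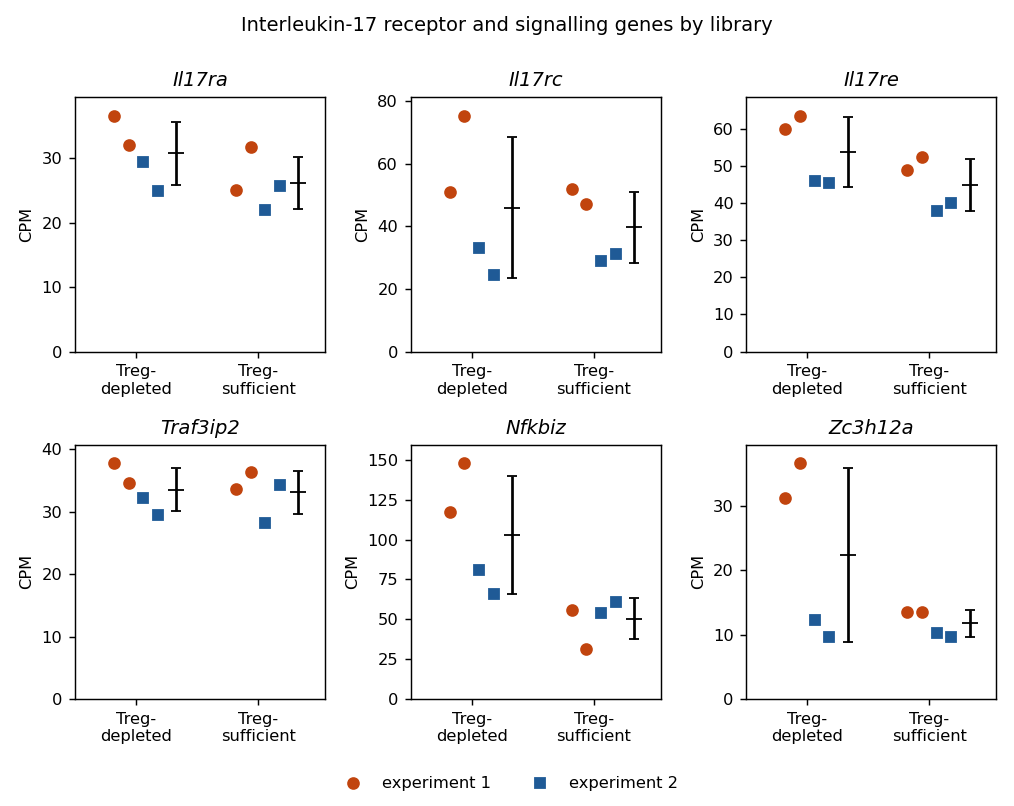
Level of each gene in every library (CPM, vertical axis, 1 panel a gene), Treg-depleted libraries left of Treg-sufficient, with circles for experiment 1, squares for experiment 2 and the mean ± SD in black. Nfkbiz is the gene whose 4 Treg-depleted libraries (66.0 to 147.7 CPM) all lie above the 4 Treg-sufficient ones (31.7 to 60.6 CPM), and for Zc3h12a the 2 Treg-depleted circles lie apart from all other points.

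Among the receptor chains, Il17ra, the chain shared by the family's receptors, had 36.5, 32.1, 29.5 and 24.9 CPM in Treg-depleted replicates 1 to 4, against 25.1, 31.8, 22.0 and 25.7 CPM in Treg-sufficient replicates 1 to 4. The groups overlapped, and the means of 30.8 ± 4.87 CPM in Treg-depleted libraries, against 26.1 ± 4.09 CPM in Treg-sufficient ones (SD, n = 4 each), gave a log2 difference of 0.23 (SE 0.13, adjusted p = 0.698, edgeR). Il17rc, the chain that completes the receptor for IL-17A and IL-17F, had 51.0, 75.3, 33.1 and 24.5 CPM in Treg-depleted libraries, against 51.8, 47.1, 28.9 and 31.1 CPM in Treg-sufficient libraries. Both the highest and the lowest of these 8 values came from Treg-depleted libraries, and the log2 fold change was 0.15 (SE 0.16, adjusted p = 0.837, edgeR). That small difference turned to -0.03 without Treg-depleted replicate 2, to -0.06 without both libraries with Xist reads and to -0.03 without both libraries with the fewest genes. Il17re, the IL-17C receptor chain of epithelial cells, had 60.0, 63.4, 45.9 and 45.4 CPM in Treg-depleted libraries, against 48.9, 52.5, 37.8 and 40.1 CPM in Treg-sufficient libraries. Within each experiment both Treg-depleted libraries lay above both Treg-sufficient ones, although the groups overlapped across experiments. The log2 difference was 0.26 (SE 0.09, adjusted p = 0.686, edgeR).

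The adaptor gene Traf3ip2 was the most even of the 6. It had 37.7, 34.6, 32.2 and 29.5 CPM in Treg-depleted libraries, against 33.6, 36.3, 28.2 and 34.3 CPM in Treg-sufficient libraries. The groups overlapped throughout, with means of 33.5 ± 3.48 CPM in Treg-depleted libraries, against 33.1 ± 3.47 CPM in Treg-sufficient ones (SD, n = 4 each) and a log2 difference of 0.01 (SE 0.11, adjusted p = 0.985, edgeR). The sign of a difference this small changed with single libraries.

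Of the 2 regulators, Nfkbiz had 117.6, 147.7, 80.8 and 66.0 CPM in Treg-depleted libraries, against 55.7, 31.7, 53.9 and 60.6 CPM in Treg-sufficient libraries. Every Treg-depleted library lay above every Treg-sufficient one, an arrangement that 1.27% of all genes shared and no other gene of the set. The means were 103.0 ± 36.8 CPM in Treg-depleted libraries, against 50.5 ± 12.8 CPM in Treg-sufficient ones (SD, n = 4 each). The log2 fold change was 0.98 (SE 0.28) and the adjusted p was 0.686 by edgeR's quasi-likelihood test. It was 0.58 without both libraries with Xist reads (SE 0.17, adjusted p = 0.510, edgeR). Zc3h12a had 31.2, 36.6, 12.3 and 9.58 CPM in Treg-depleted libraries, against 13.5, 13.6, 10.3 and 9.64 CPM in Treg-sufficient libraries. Only Treg-depleted replicates 1 and 2, both of experiment 1, lay above the Treg-sufficient range. The log2 difference was 0.74 (SE 0.24, adjusted p = 0.686, edgeR).

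Within experiment 1, Zc3h12a rose in Treg-depleted cells and was the one gene of the set to pass the test. It averaged 33.9 ± 3.79 CPM in Treg-depleted libraries, against 13.5 ± 0.0820 CPM in Treg-sufficient ones of experiment 1 (SD, n = 2 each), a log2 difference of 1.32 (SE 0.20, adjusted p = 0.0386, edgeR). The SD of 0.0820 CPM, from libraries with 371 and 398 counts of Zc3h12a, is smaller than counting error alone would give. Nfkbiz had the larger difference, with 132.6 ± 21.3 CPM in Treg-depleted libraries, against 43.7 ± 16.9 CPM in Treg-sufficient ones, and fell just outside the threshold at a log2 difference of 1.60 (SE 0.27, adjusted p = 0.0516, edgeR). Of all genes, 0.606% passed in this comparison, 0.224% as higher, and at an unadjusted p under 0.05 both regulators were higher beside 4.59% of all genes. The receptor chains and adaptor did not pass, with log2 fold changes of 0.27 (SE 0.19) for Il17ra, 0.35 (SE 0.22) for Il17rc, 0.28 (SE 0.13) for Il17re and 0.05 (SE 0.16) for Traf3ip2. Both Treg-depleted libraries lay above both Treg-sufficient ones for Il17ra, Il17re, Nfkbiz and Zc3h12a, as for 18.6% of all genes, and 6 of 6 log2 fold changes were above 0 beside 52.0% of all genes.

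The Zc3h12a call was close to the threshold and was lost without most single libraries. Its log2 fold change stayed between 1.17 and 1.41 when any 1 library was left out. Each such fit leaves a group with 1 library, assumed to vary like the others. The adjusted p was 0.0420 without Treg-depleted replicate 2, and the call was lost without any of the others: 0.0529, 0.0763 and 0.0778 without Treg-depleted replicates 1, 3 and 4, and 0.239, 0.154, 0.0860 and 0.0866 without Treg-sufficient replicates 1 to 4. Without both libraries with Xist reads the log2 fold change was 1.17 and the adjusted p 0.116. For Nfkbiz the adjusted p was 0.0408 without Treg-sufficient replicate 1 and 0.0640 to 0.123 without any other library, with log2 fold changes of 1.22 to 2.06. Without both libraries with Xist reads, which leaves 1 library of each condition in experiment 1, the log2 fold change of Nfkbiz was 1.03. DESeq2 and limma-voom called both regulators within experiment 1. Over all genes the alternatives called 0 to 1152 there, beside 100 as reported.

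Within experiment 2 no gene of the set passed, nor did any of the 16495 genes (0%). At an unadjusted p under 0.05 (edgeR), 288 genes (1.75%) and 0 of the 6 were found. At an adjusted p under 0.05 DESeq2 called 1 gene and limma-voom 0. Nfkbiz averaged 73.4 ± 10.4 CPM in Treg-depleted libraries, against 57.3 ± 4.77 CPM in Treg-sufficient ones (SD, n = 2 each), a log2 difference of 0.36 (SE 0.26). Zc3h12a averaged 10.9 ± 1.89 CPM in Treg-depleted libraries, against 9.97 ± 0.467 CPM in Treg-sufficient ones, a log2 difference of 0.13 (SE 0.20). For Zc3h12a the groups thus overlapped in experiment 2, while for Nfkbiz they lay apart in each experiment. For Il17ra, Il17rc, Il17re and Traf3ip2 the log2 fold changes were 0.19 (SE 0.19), -0.06 (SE 0.22), 0.23 (SE 0.13) and -0.02 (SE 0.16), so that 4 of 6 were above 0 beside 50.2% of all genes. Il17re and Nfkbiz had both Treg-depleted libraries above both Treg-sufficient ones, as 16.7% of all genes did. The same 2 genes did so in both experiments, beside 3.79% of all genes.

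The difference of the effects, that in experiment 2 minus that in experiment 1, was tested in the same model. It was -1.19 on the log2 scale for Zc3h12a (SE 0.28, adjusted p = 0.384, edgeR) and -1.24 for Nfkbiz (SE 0.37, adjusted p = 0.578, edgeR), or -0.68 for Nfkbiz without both libraries with Xist reads. Neither passed, so the effects are not shown to differ between experiments. Of all genes 0 (0%) passed, while 923 (5.60%) reached an unadjusted p under 0.05 (edgeR). At an adjusted p under 0.05 DESeq2 called 182 genes, Zc3h12a among them, and limma-voom called 0. The 2 regulators were the members with an unadjusted p under 0.05, both negative, beside 2.01% of all genes. For the other 4 it was -0.08 (SE 0.27) for Il17ra, -0.41 (SE 0.31) for Il17rc, -0.05 (SE 0.18) for Il17re and -0.07 (SE 0.23) for Traf3ip2. None of the 6 was above 0, beside 48.9% of all genes.

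**Figure D3:**
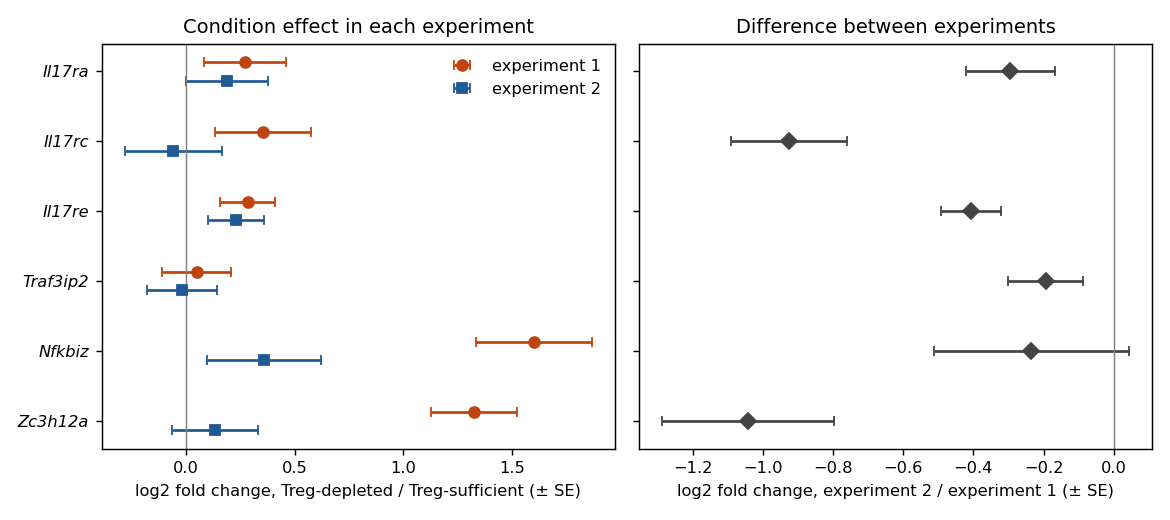
Log2 fold change with its standard error (horizontal axis) for each gene, from edgeR's quasi-likelihood fit. The comparisons drawn are conditions within experiment 1, conditions within experiment 2, and experiment 2 against experiment 1. Zc3h12a and Nfkbiz stand out in experiment 1, at 1.32 and 1.60, against 0.13 and 0.36 in experiment 2, and Il17rc has the call between experiments, at -0.93.

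All 6 genes had lower fitted levels in experiment 2 than in experiment 1, and Il17rc fell past the threshold. The experiment number is a batch label that holds both conditions, and the sources used here do not give what differed between the experiments. Il17rc averaged 29.4 ± 3.68 CPM in experiment 2 and 56.3 ± 12.8 CPM in experiment 1 (SD, n = 4 each), a log2 difference of -0.93 (SE 0.17, adjusted p = 0.0457, edgeR). Its 4 libraries of experiment 2 (24.5 to 33.1 CPM) all lay below those of experiment 1 (47.1 to 75.3 CPM). The other genes did not pass. Zc3h12a, at 10.4 ± 1.25 CPM in experiment 2 and 23.7 ± 12.0 CPM in experiment 1, lay lower by a log2 difference of -1.04 (SE 0.25, adjusted p = 0.0642, edgeR). Il17re, at 42.3 ± 3.98 CPM in experiment 2 and 56.2 ± 6.67 CPM in experiment 1, lay lower by a log2 difference of -0.41 (SE 0.09, adjusted p = 0.0541, edgeR). For these 2 genes and Il17rc, experiment 2 lay wholly below experiment 1, as for 5.86% of all genes. The log2 fold changes of Il17ra, Traf3ip2 and Nfkbiz were -0.29 (SE 0.13), -0.19 (SE 0.11) and -0.23 (SE 0.28). In all, 0 of 6 were above 0, beside 47.3% of all genes.

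Between experiments 1.62% of all genes were called, 0.721% as lower, and at an unadjusted p under 0.05 4 of the 6 genes were lower beside 10.6% of all genes. The Il17rc call held without Treg-sufficient replicate 1 and was lost without any other library, with adjusted p of 0.0723, 0.0710, 0.114 and 0.156 without Treg-depleted replicates 1 to 4 and 0.123, 0.0725 and 0.0625 without Treg-sufficient replicates 2 to 4. Its log2 fold change was then -0.99 to -0.76. Without both libraries with Xist reads it was -0.80 (adjusted p = 0.203, edgeR) and without both libraries with the fewest genes -0.75 (adjusted p = 0.0938, edgeR). Melanocyte transcripts also moved with the experiment: the summed level of 6 melanocyte markers was 127.7 to 392.7 CPM in experiment 2 and 58.7 to 86.3 CPM in experiment 1, and 3 of the 6 (Dct, Tyrp1 and Pmel) were called higher beside 0.903% of all genes. Mitf, of the same list, went the other way at -0.52 (SE 0.26). Of the 10 follicle stem cell and basal keratinocyte markers 0 were called. At an unadjusted p under 0.05 (edgeR) 3 of them were higher and 5 lower, beside 11.4% and 10.6% of all genes. Over all genes, 0 were called between experiments without both libraries with the fewest genes and 2 without both with Xist reads. The part of melanocytes or of the cells with follicle markers in the difference of the receptor genes was not tested.

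The ligands of the pathway were scarcely seen in these sorted cells. Il17a, the main T cell ligand, had 0 counts in all 8 libraries, which allows up to 3 counts or 0.0993 to 0.143 CPM per library, for counting error only. Il17f had 0 to 14 counts in Treg-depleted and 4 to 19 counts in Treg-sufficient libraries, and Il17c, the epithelial ligand of Il17re, had counts in Treg-sufficient replicates 3 (9 counts) and 4 (1 count) only. The 3 ligands that passed the filter, Il17b, Il17d and Il17f, had log2 fold changes of 0.89 (SE 0.84), 0.34 (SE 0.41) and -0.35 (SE 0.83), none of them called, with a median of 0.339. The remaining receptor chains were measured more firmly. Il17rb, a chain of the IL-25 receptor, had 14.9 to 19.6 CPM in Treg-depleted libraries, against 10.2 to 22.9 CPM in Treg-sufficient ones, with a log2 difference of -0.12 (SE 0.23). Il17rd had 14.3 to 52.2 CPM in Treg-depleted libraries, against 25.0 to 54.9 CPM in Treg-sufficient ones, with a log2 difference of -0.09 (SE 0.26). Its log2 difference between experiment 2 and experiment 1 was positive, unlike that of Il17rc, at 0.87 (SE 0.26, adjusted p = 0.0976, edgeR), and did not pass by edgeR, while DESeq2 called it.

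None of the 22 genes of proximal signalling, the ubiquitin ligases, kinases and NF-κB and MAP kinase steps below the receptor, passed edgeR's test in any comparison. Between experiments DESeq2, which called 2167 genes there in all, called 4 of the 22: 2 as higher, Traf4 among them, and Ikbke and Rela as lower. With no filter on low counts edgeR called Traf4 and Ikbke between experiments. Between conditions 14 of the 22 were above 0 with a median log2 fold change of 0.040, and 12 were above 0 under DESeq2 size factors or upper-quartile scaling. Among the most abundant were Tab2, an adaptor of the kinase TAK1, with a log2 fold change of -0.01 (SE 0.09), and Nfkb1, the NF-κB subunit p105, with one of 0.22 (SE 0.11). Traf4 and Traf3, which restrain IL-17 receptor signalling, had log2 fold changes of -0.24 (SE 0.16) and 0.16 (SE 0.13). In experiment 1 the median over this list was 0.035 and in experiment 2 it was 0.013, against 0.015 and 0.001 for all genes.

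Of the 17 brakes and mRNA stability partners, all tested, 13 were above 0 between conditions with a median log2 fold change of 0.203 and none passed. At an unadjusted p under 0.05, 4 were higher, beside 3.50% of all genes, and 50.3% of all genes were above 0. These 4 were Arid5a, Malt1, Usp25 and Zfp36. Arid5a, an RNA-binding protein that stabilizes inflammatory mRNAs and opposes Regnase-1, rose in experiment 1 to 117.6 ± 15.5 CPM in Treg-depleted libraries, against 46.5 ± 0.488 CPM in Treg-sufficient libraries (SD, n = 2 each). This was a log2 difference of 1.34 (SE 0.19, adjusted p = 0.0364, edgeR), next to 0.31 (SE 0.19) in experiment 2, and the difference of the effects was -1.03 (SE 0.27, adjusted p = 0.463, edgeR). The layout of its libraries was that of Zc3h12a: 128.5 and 106.7 CPM in Treg-depleted replicates 1 and 2, 48.1 and 33.6 CPM in replicates 3 and 4, and 46.1, 46.8, 33.7 and 32.3 CPM in Treg-sufficient libraries. The call held without Treg-depleted replicate 2 and was lost without any other library, at adjusted p of 0.0673, 0.0520 and 0.0515 without Treg-depleted replicates 1, 3 and 4 and of 0.215, 0.134, 0.0852 and 0.0860 without Treg-sufficient replicates 1 to 4. Each of these fits leaves a group with 1 library, assumed to vary like the others. Without both libraries with Xist reads, which leaves 1 library of each condition in experiment 1, the log2 fold change was 1.43. It was 1.47 without both libraries with the fewest genes.

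Zfp36, which encodes tristetraprolin, a protein that directs the decay of AU-rich mRNAs, had 1072, 964.6, 332.4 and 229.4 CPM in Treg-depleted libraries, against 300.5, 56.2, 221.3 and 251.6 CPM in Treg-sufficient libraries. Treg-depleted replicates 1 and 2 were again high, and Treg-sufficient replicate 2 was low. The log2 fold change was 1.38 (SE 0.61, adjusted p = 0.696, edgeR) between conditions and 2.51 (SE 0.64, adjusted p = 0.155, edgeR) in experiment 1. In experiment 1 it was called by DESeq2. The log2 fold change there was 4.18 without Treg-sufficient replicate 1, which leaves the low replicate 2 as the only Treg-sufficient library. It was 1.79 without both libraries with Xist reads, which leaves 1 library of each condition in experiment 1. Malt1, a protease that cleaves Regnase-1 in lymphocytes, and Usp25, a deubiquitinase that restrains IL-17 signalling, had smaller log2 fold changes of 0.30 (SE 0.12) and 0.22 (SE 0.10), both with an adjusted p of 0.694 or more (edgeR). Among the most abundant of the list, Srsf1, a splicing factor, differed by -0.13 (SE 0.11) on the log2 scale and Ptpn13, a phosphatase, by 0.01 (SE 0.10). Nfkbia, the NF-κB inhibitor IκBα, picked after its values were seen, had 142.7, 142.1, 64.9 and 44.1 CPM in Treg-depleted libraries, against 87.7, 49.5, 61.0 and 49.6 CPM in Treg-sufficient libraries. Its log2 fold change in experiment 1 was 1.05 (SE 0.29, adjusted p = 0.177, edgeR), so the pattern was shared but the gene did not pass by edgeR, while DESeq2 called it. Tnfaip3, the deubiquitinase A20, also picked after its values were seen, was high in Treg-depleted replicate 1 alone, at 75.1 CPM against 41.2 to 49.2 CPM in the other 7 libraries.

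Keratinocyte IL-17 target genes had log2 fold changes on both sides of 0 between conditions. Of 34 listed, 22 were tested and the other 12 stayed at or under 2.51 CPM in every library, with Saa1 and Defb4 at 0. Set by condition, 13 of the 22 were above 0, beside 50.3% of all genes, with a median log2 fold change of 0.224, and none passed. In experiment 1 the median was 0.234 with 16 above 0, beside 52.0% of all genes. In experiment 2 it was -0.227 with 8 above 0, beside 50.2% of all genes. Cebpd, a transcription factor gene that IL-17 induces together with Nfkbiz, was the one called by edgeR, in experiment 1, at 66.5 ± 7.14 CPM in Treg-depleted libraries, against 5.93 ± 3.22 CPM in Treg-sufficient ones (SD, n = 2 each). That log2 difference was 3.49 (SE 0.36, adjusted p = 0.0151, edgeR), and 0.42 (SE 0.35) in experiment 2. Of all genes, 0.224% were called higher in experiment 1. Leaving out any 1 library leaves a group with 1 library, and the Cebpd difference in experiment 1 then ranged from 2.98 to 4.18. The Cebpd call was lost without Treg-depleted replicate 3. Among the 22 targets DESeq2 called Lcn2 and Cebpd in experiment 1, limma-voom called Cebpd, and edgeR with no filter on low counts called 5 as higher and 2 as lower. Leaving out both libraries with the fewest genes, or both with Xist reads, leaves 1 Treg-depleted library in experiment 1. The log2 difference of Cebpd was then 3.37 and 2.86. Treg-depleted replicates 1 and 2 held 61.5 and 71.6 CPM of Cebpd, while the other 6 libraries held 3.61 to 8.21 CPM. The difference of its effects between experiments was -3.07 (SE 0.49, adjusted p = 0.180, edgeR).

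Other targets followed other layouts. Steap4, a metalloreductase, had 601.7, 243.3, 252.9 and 283.4 CPM in Treg-depleted libraries, against 193.8, 293.4, 205.4 and 249.0 CPM in Treg-sufficient libraries. It was high in Treg-depleted replicate 1 only, with a log2 difference of 0.52 (SE 0.28). In experiment 1 the log2 difference of Steap4 was 1.27 without Treg-depleted replicate 2. That leaves the high replicate 1 as the only Treg-depleted library there. Krt6a, a keratin of activated epidermis, had 194.5, 1304, 107.5 and 71.2 CPM in Treg-depleted libraries, against 725.0, 587.8, 314.3 and 200.0 CPM in Treg-sufficient libraries. Here Treg-depleted replicate 2 was high and the other Treg-depleted libraries lay below the Treg-sufficient range, with a log2 difference of -0.66 (SE 0.58). Without both libraries with the fewest genes, of which Treg-depleted replicate 2 is one, Krt6a differed by -1.76 in experiment 1. Replicate 1 was then the only Treg-depleted library there. Krt17, the most abundant target, had a log2 difference of -0.37 (SE 0.23). In experiment 1 this was -1.28 without Treg-depleted replicate 2, which again leaves replicate 1 as the only Treg-depleted library. Krt6a and Krt17 have near-identical relatives, and reads that aligned to several places were not given to a gene, so their values are uncertain. Ccl20, a chemokine that attracts CCR6-bearing cells, and Mmp3, a matrix protease, were lower at an unadjusted p under 0.05, beside 3.62% of all genes, with log2 fold changes of -1.15 (SE 0.46) and -2.37 (SE 0.83), and adjusted p of 0.694 and 0.686 by edgeR. Both were low, at 0.319 to 0.860 CPM in Treg-depleted libraries, against 0.458 to 2.43 CPM in Treg-sufficient ones for Ccl20.

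Lcn2, Il19 and Cxcl1, a siderophore-binding protein, a cytokine of the IL-10 family and a neutrophil chemokine, were picked after their values were seen. Lcn2 had 6.77, 24.9, 0.620 and 0.603 CPM in Treg-depleted libraries, against 2.62, 2.63, 1.98 and 1.19 CPM in Treg-sufficient libraries. It thus lay above the Treg-sufficient range in experiment 1 and below it in experiment 2, with log2 fold changes of 2.59 in experiment 1 (SE 0.59, adjusted p = 0.112, edgeR) and a difference of effects of -3.96 (SE 0.87, adjusted p = 0.327, edgeR). DESeq2 called both. Leaving out Treg-depleted replicate 1 leaves replicate 2 as the only Treg-depleted library of experiment 1. The log2 fold changes there were then 3.22 for Lcn2 and 4.08 for Il19. Il19 was high in Treg-depleted replicate 2 alone (41.0 CPM, against 0.116 to 3.12 CPM in the other 7 libraries), and Cxcl1 was highest there too (27.1 CPM, against 1.39 to 9.04 CPM). Between experiments 20 of the 22 tested targets were below 0 in experiment 2, with a median log2 fold change of -1.31 beside -0.020 for all genes. By edgeR none passed and 10 were lower at an unadjusted p under 0.05, beside 10.6% of all genes. DESeq2 called 8 as lower (Cxcl1, Il19, Lcn2, Krt6a, Krt6b, Krt16, Mmp3 and Cebpd) and Krt17 as higher, limma-voom called Cebpd as lower, and the 4-group model, with a mean for each condition in each experiment, called 6 as lower. The 20 were the same in number under DESeq2 size factors and upper-quartile scaling. Over all genes the alternatives called 0 to 2443 between experiments, beside 268 as reported.

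**Figure D4:**
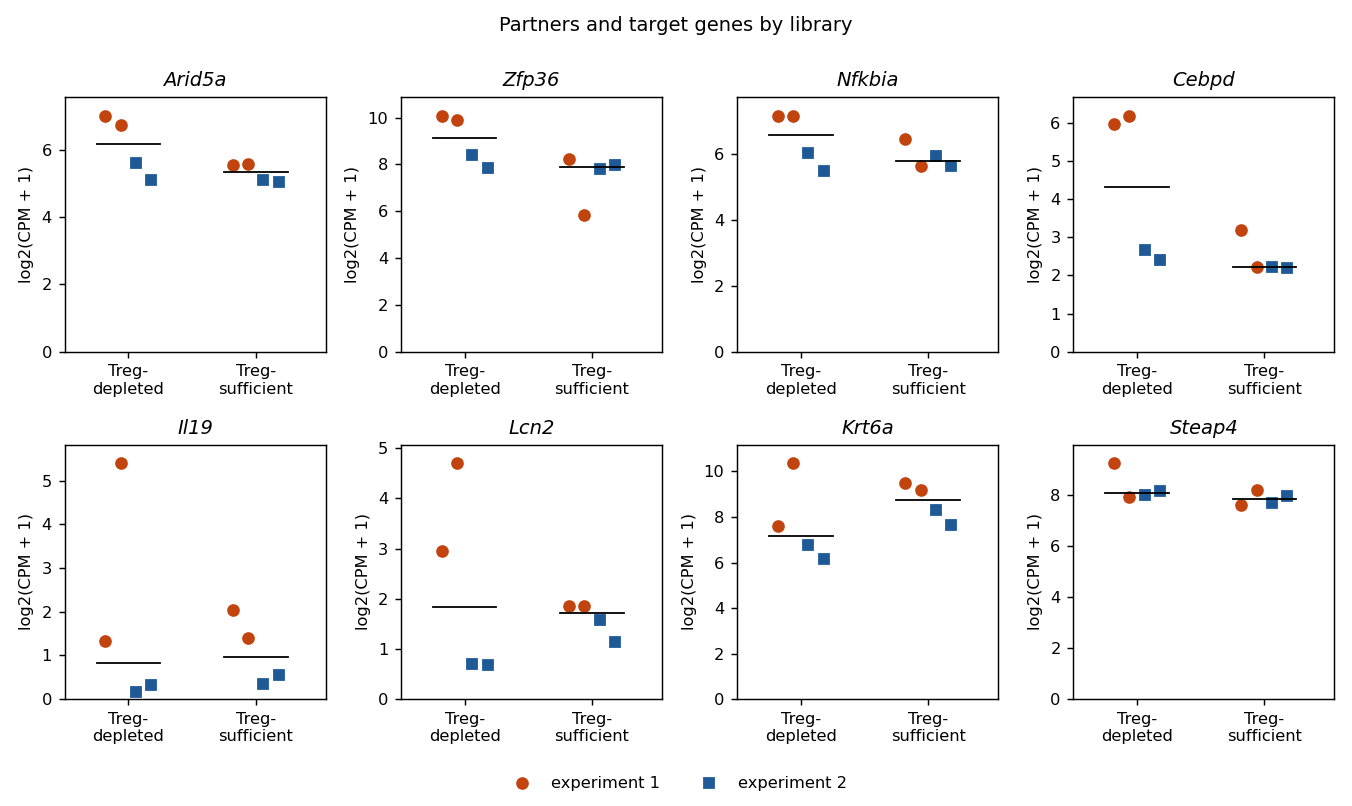
Level of brakes and target genes in every library (log2(CPM + 1), vertical axis, 1 panel a gene), Treg-depleted left of Treg-sufficient, circles for experiment 1, squares for experiment 2 and a line at each median. Arid5a, Cebpd and Zfp36 share the high Treg-depleted circles of experiment 1, while Krt6a, Il19 and Steap4 are each high in 1 Treg-depleted library.

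Immediate early genes, a rapid and short-lived response to stimuli and to cell handling, lay higher in Treg-depleted libraries as well. The summed level of 8 of them (Fos, Fosb, Jun, Junb, Egr1, Ier2, Atf3 and Nr4a1), a list chosen after the data were seen, was 7678, 5530, 4652 and 3541 CPM in Treg-depleted libraries, against 1929, 627.5, 2347 and 2969 CPM in Treg-sufficient libraries. In this sum every Treg-depleted library lay above every Treg-sufficient one. Of the 8 genes 0 were called between conditions, 3 in experiment 1, beside 0.224% of all genes called higher, and 0 in experiment 2. At an unadjusted p under 0.05 (edgeR) 8 of 8 were higher between conditions and in experiment 1, beside 3.50% and 4.59% of all genes. Their median log2 fold changes were 1.524 between conditions, 2.394 in experiment 1 and 0.585 in experiment 2. Their part in the result for Nfkbiz and Zc3h12a was not tested.

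Defining transcripts of leukocytes were at or near 0. Cd3e had 0 to 2 counts, Ptprc 0 to 11 counts and Foxp3 0 to 21 counts in Treg-depleted and 4 to 22 counts in Treg-sufficient libraries. Of 13 markers of T cells and innate lymphoid cells, 12 had counts, and their summed level was 44.9 to 64.2 CPM in Treg-depleted libraries, against 42.6 to 55.9 CPM in Treg-sufficient ones, with Trbc2 at 14.3 to 27.0 CPM. Markers of macrophages and Langerhans cells summed to 4.81 to 6.46 CPM in Treg-depleted libraries, against 4.90 to 7.27 CPM in Treg-sufficient ones. Neutrophil markers, without any count of Ly6g, summed to 3.41 to 10.9 CPM in Treg-depleted libraries, against 3.54 to 5.30 CPM in Treg-sufficient ones. The regulatory T cell list, mostly Ikzf2, summed to 6.53 to 37.5 CPM in Treg-depleted libraries, against 5.72 to 14.2 CPM in Treg-sufficient ones. For fibroblasts the sums were 257 to 353 CPM in Treg-depleted libraries, against 265 to 325 CPM in Treg-sufficient ones, mostly Fbln1 (190 to 333 CPM in Treg-depleted libraries, against 179 to 236 CPM in Treg-sufficient ones). Yet 5 of the 7 tested fibroblast markers lay below 0 between conditions, with a median log2 fold change of -0.589 and none called. Dcn, the proteoglycan decorin, had 2.34, 3.20, 38.6 and 21.8 CPM in Treg-depleted libraries, against 30.3, 7.10, 42.2 and 83.4 CPM in Treg-sufficient libraries, a log2 difference of -1.84 (SE 0.54, adjusted p = 0.686, edgeR). Their part in the results for the IL-17 genes was not tested. Sums for endothelial cells were 2.51 to 5.36 CPM in Treg-depleted libraries, against 4.54 to 11.4 CPM in Treg-sufficient ones. Suprabasal markers, of differentiating epidermis, are given by experiment. In experiment 2 their sums were 401 and 418 CPM in Treg-depleted libraries, against 162 and 490 CPM in Treg-sufficient ones, and 3 of the 4 tested were above 0 with a median log2 fold change of 0.843. In experiment 1, where Zc3h12a was called, the sums were 698 and 148 CPM in Treg-depleted libraries, against 1254 and 1067 CPM in Treg-sufficient ones, and 4 of 4 were below 0 with a median of -1.517. None was called in either experiment or for the difference of the effects, and their part in the result for Zc3h12a was not tested.

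Across the 8 libraries, which share depth and experiment, each gene's closest match among the 16495 was found by Pearson's r of log2(CPM + 1), as a description. Zc3h12a was most like Tgm1, the keratinocyte transglutaminase (r = 0.996), Tent5b (0.991) and Rsu1 (0.989). Nfkbiz was most like Csrnp1 (0.982), Foxn2 (0.978) and Klf6 (0.976), a zinc finger factor. Il17re was most like Dguok (0.990), Fgfbp3 (0.990) and Myd88 (0.983), the adaptor of interleukin-1 and Toll-like receptors. The nearest to Il17ra were Tmem62 (0.990), Skint3 (0.987) and Mocos (0.984), to Il17rc Apeh (0.988), Ttll13 (0.978) and Cfap43 (0.977), and to Traf3ip2 Klf8 (0.990), Fst (0.985) and Cpt2 (0.975). No gene of the set was among the 3 nearest of another.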

How the data were processed

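Libraries were made with a stranded, poly(A)-selecting kit from sorted cells, per the labels' protocols. The authors deposited a table of raw read counts per gene, with no normalization. The submitters' processing notes name TopHat2 (version 2), SAMtools, HTSeq, DESeq2 and GRCm38.p4, without the role of each. The sources used here do not give the annotation release or the strand setting of the counting. Symbols and coordinates came from GENCODE M21 on GRCm38, which with RefSeq synonyms named 45229 of the 46078 identifiers. The 5 tallies of unassigned reads stayed out of library sizes: reads in no gene were 6.63 to 10.8%, ambiguous reads 2.72 to 3.01% and multiply aligned reads 26.2 to 30.6% of those listed.

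edgeR 4.0.16 in R 4.3.3 was used for all tests (TMM factors, filterByExpr at a minimum count of 10, quasi-likelihood F-test) across all 16495 genes kept, with Benjamini-Hochberg adjustment and a threshold of 0.05. A model of condition and experiment (5 residual degrees of freedom) gave the differences between conditions and between experiments. A model of 4 groups, each condition in each experiment (2 libraries each, 4 residual degrees of freedom), gave the effects within each experiment and their difference. Standard errors given with edgeR were the absolute log2 fold change divided by the square root of the F statistic. CPM used TMM-scaled library sizes, and RPKM divided CPM by the merged exon length. The steps were tested on simulated counts. Alternatives used DESeq2 1.42.0, limma 3.58.1 (voom), other scaling factors, no filter, and left-out libraries.

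The members and gene lists were chosen with earlier results of these data known, so no list was tested as a set. Besides the 6 members, the rule named from each list the 3 genes of highest mean CPM, the 3 of smallest p between conditions and any called, and for each member the 3 genes of highest correlation. One gene that the rule named is not reported here. Genes beyond the rule are named as chosen after their values were seen. Intervals and floors cover counting error only. For the members, counting error is smaller than the spread over all 8 libraries, but not smaller than every SD of 2 libraries.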

Additional observations from a re-analysis of the deposited data

Results flagged for a closer look

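In a group of 4 libraries, a library was picked out where its gap to the nearest of the others as a share of the group's range exceeded Dixon's 95% critical value. Over 35 genes, 70 groups were examined and 7 values were picked out. Some of these genes were chosen after their values were seen, and each group held libraries of both experiments. No chance rate is therefore set beside this count. Treg-depleted replicate 2 was picked out for 4 genes: Krt6a at 1304 CPM (71.2 to 194.5 CPM in the other Treg-depleted libraries), Krt6b, a closely related keratin, at 120.2 CPM (7.31 to 10.7), Il19 at 41.0 CPM (0.116 to 1.51) and Mmp3 at 1.34 CPM (0 to 0.177). Treg-depleted replicate 1 was picked out for Steap4 at 601.7 CPM (243.3 to 283.4) and for Tnfaip3 at 75.1 CPM (41.2 to 44.7). Among Treg-sufficient libraries, replicate 1 was picked out for Cebpd at 8.21 CPM (3.61 to 3.66 in the others). No member was picked out in either condition.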

How the results depend on the processing

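Of 480 recomputed log2 fold changes of the 6 genes, 427 kept their direction and their side of the threshold, 17 lost a call, 13 gained one and 23 changed sign; the cause was not tested. With no filter, the genes called of the 6 were 2 between conditions (Nfkbiz and Zc3h12a), 2 in experiment 1, 1 for the difference of effects (Nfkbiz) and 2 between experiments (Il17rc and Zc3h12a). DESeq2 called 2 in experiment 1, 1 for the difference of effects (Zc3h12a) and 3 between experiments. In experiment 1 limma-voom called 2, and the 4-group model called 3 between experiments (Il17rc, Il17re and Zc3h12a). The number of all genes called also changed with the setting, as the ranges below give. These counts of members alone therefore do not set the 6 genes apart from other genes. Leaving out 1 library gave 0 to 1 in experiment 1 and 0 to 1 between experiments. Without both libraries with Xist reads 0 were called in either, and without both libraries with the fewest genes, a setting added after seeing the data, 0 between experiments. A group left with 1 library was assumed to vary like the others.

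Sign changes arose as follows, on the log2 scale. Without both libraries with Xist reads Il17rc was -0.063 between conditions, -0.067 in experiment 1 and 0.006 for the difference of effects. Without both libraries with the fewest genes Il17rc was -0.033 and Traf3ip2 -0.022 between conditions. Leaving out each library in turn gave ranges across 0 between conditions for Il17rc (-0.032 to 0.268) and Traf3ip2 (-0.034 to 0.079), in experiment 1 for Traf3ip2 (-0.041 to 0.075), in experiment 2 for Il17rc (-0.291 to 0.141), Traf3ip2 (-0.154 to 0.130) and Zc3h12a (-0.056 to 0.296), and in the difference of effects for Il17ra (-0.229 to 0.077), Il17re (-0.096 to 0.017) and Traf3ip2 (-0.200 to 0.084).

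Genes called in all ranged over the alternatives from 0 to 820 between conditions (0 as reported), 0 to 1152 in experiment 1 (100), 0 to 132 in experiment 2 (0), 0 to 534 for the difference (0) and 0 to 2443 between experiments (268), the highest each with no filter. With no filter, 3 of the 17 brakes were also called higher between conditions, and 3 of the 22 targets higher and 3 lower. The labels do not explain the letters in the sample titles. Deviations of same-lettered libraries correlated at -0.18 once condition and experiment were removed. With 2 libraries in each group, letters A and B must give the same value, as must C and D. This cannot settle whether the letters pair libraries. With the letter as a replicate block, and with letters crossed within experiments, 0 of the 6 genes and 0 genes in all were called between conditions. Fewer libraries leave fewer residual degrees of freedom, so calls lost that way are not by themselves smaller effects.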
